A study of Caenorhabditis elegans with 12 samples.

Results

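The 34 genes described here encode parts of the contractile apparatus of the body wall and pharyngeal muscle of Caenorhabditis elegans. They were listed by gene name, with earlier results of these data known, and all 34 were found by symbol among the 46726 genes of the count table. Of these, 12 belong to the thick filament and its giant proteins (unc-54, myo-3, myo-1, myo-2, myo-5, unc-15, mlc-1, mlc-2, mlc-3, unc-22, unc-89 and ttn-1). A further 14 belong to the thin filament and its regulators (lev-11, pat-10, tnc-2, mup-2, tnt-2, tnt-4, tni-1, unc-27, tni-3, tni-4, unc-87, cpn-3, unc-60 and tmd-2). The remaining 8 act in attachment, at the dense body or membrane, or as a chaperone (unc-95, unc-97, deb-1, unc-112, dim-1, mlp-1, cav-1 and unc-45). By form, 6 genes (myo-1, myo-2, myo-5, tnc-2, tnt-4 and tni-4) are listed as pharyngeal and 28 as body wall or shared.

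RNA was sequenced from cells sorted from larvae carrying dsRed under the F16F9.3 promoter, which labels the amphid sheath (AMsh) glia, the pair of glial cells that wrap the endings of head sensory neurons. The 4 groups of 3 libraries were dsRed-positive cells (AMsh) of che-2(e1033) animals, dsRed-negative cells (non-AMsh) of che-2(e1033) animals, AMsh cells of wild type animals and non-AMsh cells of wild type animals. Both strains (OS11549 for che-2(e1033), OS4079 for wild type) carry the reporter and were grown in liquid culture at 20 °C for 36 to 42 h, to late larval stages (L3 and L4). Each of 6 cultures, 3 per genotype under the codes E30, E35 and E36, was dissociated, filtered and sorted into both fractions, with dead and anucleate particles gated out. che-2 encodes a component of the intraflagellar transport machinery that builds sensory cilia, and the study asked how AMsh glia respond when the cilia they enclose are lost. AMsh glia are not muscle cells, and the dsRed-negative sort, from the same size and granularity gates, stands for all other cell types of the animal, muscle included.

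In a sarcomere, thick filaments of myosin and paramyosin pull on thin filaments of actin. Tropomyosin and the troponin complex (troponins C, I and T) set when myosin can reach actin, in response to calcium. In nematode body wall muscle the thin filaments are anchored at dense bodies and the thick filaments at M-lines, and both structures connect to the cell membrane and the cuticle. The pharynx, which pumps food, has muscle of its own, with its own myosin heavy chains and its own troponin forms.

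Library totals were 15420762 to 26019499 counts, and the members held 1.35 to 1.73% of them. All 34 members passed the filter on low counts (16690 genes were kept), 33 had counts in every library and 32 had at least 158 counts in every library. Genes detected numbered 14101 in the wild type AMsh library of E30, 15711 in the che-2 AMsh library of E35 and 17555 to 19298 in the others. The reporter's own gene, F16F9.3, checked the sort: it had 73.5, 465 and 257 CPM in che-2 AMsh libraries, against 8.58, 5.19 and 6.75 CPM in che-2 non-AMsh libraries. In wild type it had 94.7, 193 and 231 CPM in AMsh libraries, against 9.296, 5.23 and 4.40 CPM in non-AMsh libraries (values are given in the order E30, E35 and E36 throughout, and CPM are counts relative to library sizes scaled by the trimmed mean of M values, TMM). che-2 itself had 0 to 12.5 CPM over the 12 libraries; the labels do not say how the e1033 allele changes its RNA, so its level does not check the genotype.

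Several sarcomere genes were among the most abundant transcripts of both fractions. By mean CPM per kilobase of exon over the 12 libraries, 4 members lay in the top 1% of the genes tested, 10 in the top 5% and 15 in the top 10%, and the 6 highest held 84.5% of the summed level of the 34 on that scale. By CPM alone, which rises with gene length, the 6 with the most reads were pat-10, mlc-3, unc-54, mlc-1, cpn-3 and unc-15. Per kilobase, pat-10, the troponin C of body wall muscle, was highest at 4942 CPM per kilobase, followed by cpn-3, a calponin-family protein, at 1932. The myosin light chains came next: mlc-1 at 1079, mlc-3 at 1064 and mlc-2 at 847 CPM per kilobase, and the ranges of mlc-1 and mlc-3 over libraries overlapped. Paramyosin (unc-15) had 371, the troponin I gene unc-27 333, tropomyosin (lev-11) 329.7 and the main body wall myosin heavy chain (unc-54) 280.4 CPM per kilobase, again with overlapping ranges. The giant proteins were low on this scale: the obscurin-like unc-89 had 4.96, twitchin (unc-22) 3.32 and the titin-like ttn-1 3.14 CPM per kilobase. Their exons span 25.8, 22.9 and 56.6 kilobases, and their mean levels were 128, 76.1 and 177 CPM. How evenly reads covered transcripts of such length was not tested. Levels per kilobase may therefore not rank abundance between long and short genes. Among the attachment genes, dim-1, an immunoglobulin-domain protein that stabilises thin filaments, was highest at 48 and mlp-1, a muscle LIM protein, followed at 45.7 CPM per kilobase. The myosin chaperone unc-45 had 2.15 and caveolin (cav-1) 0.432 CPM per kilobase; cav-1 had only 0 to 41 counts per library.

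**Figure D1:**
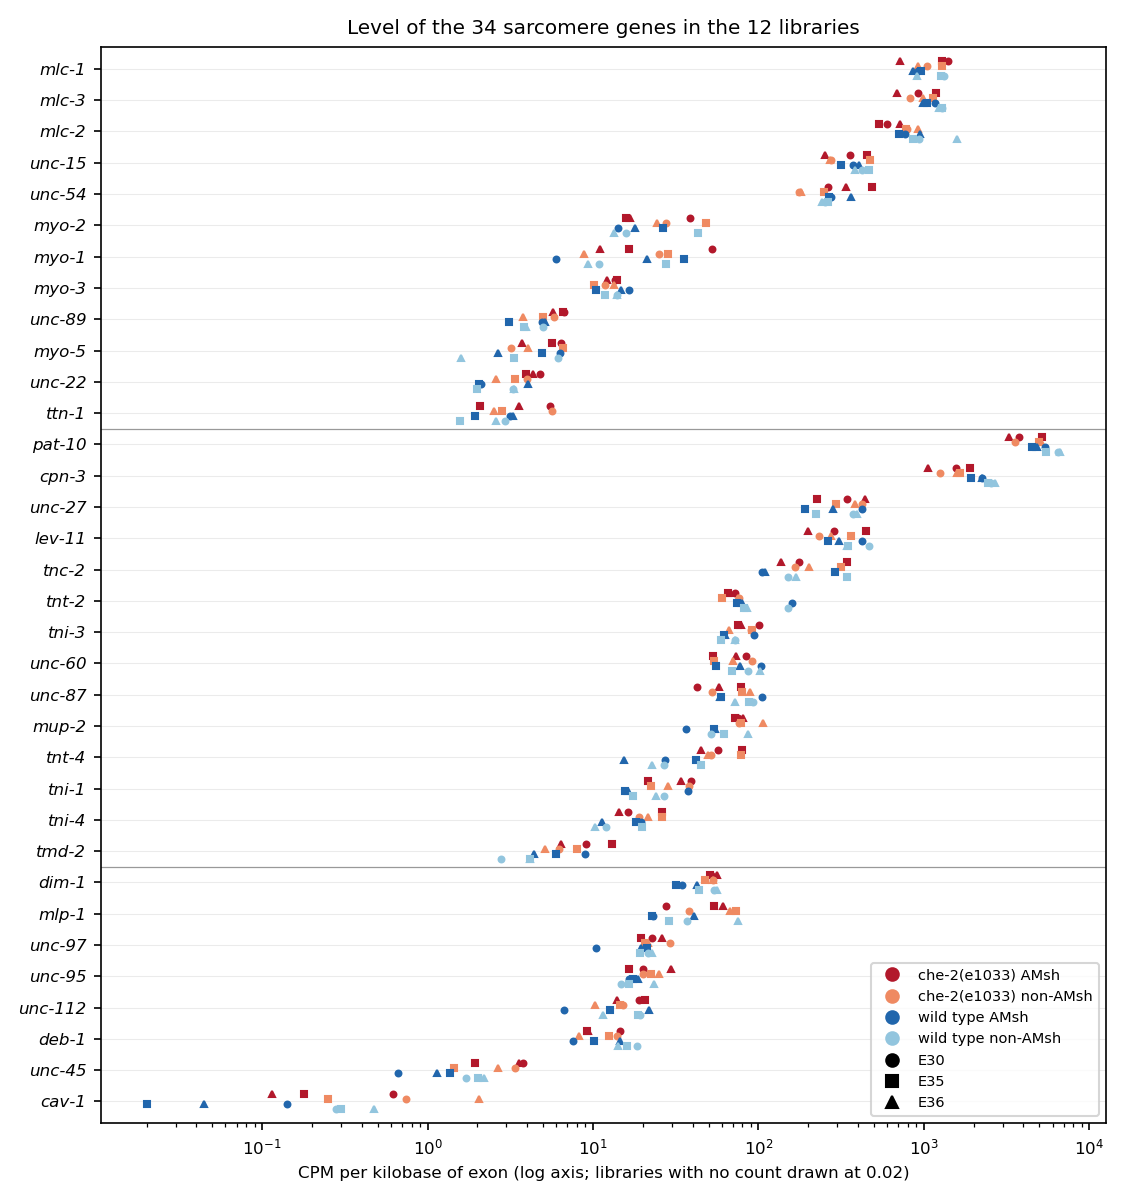
Level of each of the 34 genes in CPM per kilobase of exon (log axis) in the 12 libraries, coloured by group and shaped by culture code; lines separate thick filament, thin filament and attachment genes, each ordered by mean level. The points of all 4 groups lie together for most genes, while the genes span from 0.432 (cav-1) to 4942 (pat-10) CPM per kilobase on average.

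The question for the fractions was whether sarcomere transcripts were at other levels in AMsh cells than in non-AMsh cells. No member passed the test (edgeR's quasi-likelihood F test, adjusted over all 16690 genes at 0.05) in either genotype or over both. By unadjusted p under 0.05 the counts were 1 of 34 in che-2, 0 in wild type and 2 over both genotypes, where 2.98%, 3.81% and 4.48% of all genes tested fell under it. The 4-group model behind these counts and the intervals below did not use the pairing of fractions by culture. With culture as a block, 2, 4 and 5 members fell under 0.05 unadjusted, and none passed after adjustment. The share of all genes at that threshold is not given here for the blocked fit. DESeq2 called 0 members in each, and 1.1%, 1.05% and 1.56% of all genes. With edgeR, the shares of all genes called were 0.593% in che-2, 0.437% in wild type and 0.875% over both genotypes, so a count of 0 among 34 is near that background. The median log2 fold change of the members, AMsh over non-AMsh, was 0.01 in che-2 and -0.20 in wild type, and over both genotypes it was -0.08 (-0.05 over all genes tested, -0.10 over all genes in wild type). The 95% interval lay within a 2-fold change in either direction for 19 members in che-2, 14 in wild type and 25 over both genotypes. The same held for 10.4%, 8.74% and 27.3% of all genes tested, which are mostly lower in counts and had a median standard error of 0.73, against 0.36 for the members in che-2.

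The summed level of the 34 genes was also compared between the fractions. The 6 members with the most reads held 75.7% of it by mean CPM, so the sum mostly describes those 6. In che-2 the sum was 14501, 17774 and 11875 CPM in AMsh libraries and 12432, 16162 and 13929 CPM in non-AMsh libraries. In wild type it was 16214, 14120 and 15537 CPM in AMsh libraries and 18280, 17201 and 17702 CPM in non-AMsh libraries. Within a culture the AMsh over non-AMsh ratio of this sum was 1.17, 1.0998 and 0.853 in che-2, and 0.887, 0.821 and 0.878 in wild type, where all 3 AMsh libraries lay below all 3 non-AMsh libraries with TMM scaling but not with relative log expression (RLE) size factors. The che-2 ratio of E35 turned to 0.908 with library totals only and 0.994 with upper-quartile scaling; no other of the 6 ratios changed side of 1. Over the same cultures F16F9.3 was 8.56, 89.6 and 38.02 times as high in AMsh as in non-AMsh cells in che-2, and 10.2, 37.0 and 52.5 times in wild type. In both genotypes the culture with the lowest F16F9.3 ratio, E30, had the highest sarcomere ratio with TMM scaling. In wild type, E36 was instead the highest with upper-quartile scaling and with library totals only. The same held without mitochondrial counts in the total (0.933, against 0.853 in E30). Between E35 and E36 the order ran the other way. There the culture with the higher F16F9.3 ratio, E35 in che-2 and E36 in wild type, also had the higher sarcomere ratio. In these bulk samples, fewer muscle cells and less RNA per muscle cell cannot be told apart. The source of the sarcomere RNA in AMsh libraries was not tested. The 6 pharyngeal genes summed to 854, 648 and 383 CPM in che-2 AMsh libraries and to 578, 912 and 484 CPM in che-2 non-AMsh libraries. In wild type they summed to 306, 734 and 386 CPM in AMsh libraries and to 377, 826 and 331 CPM in non-AMsh libraries.

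**Figure D2:**
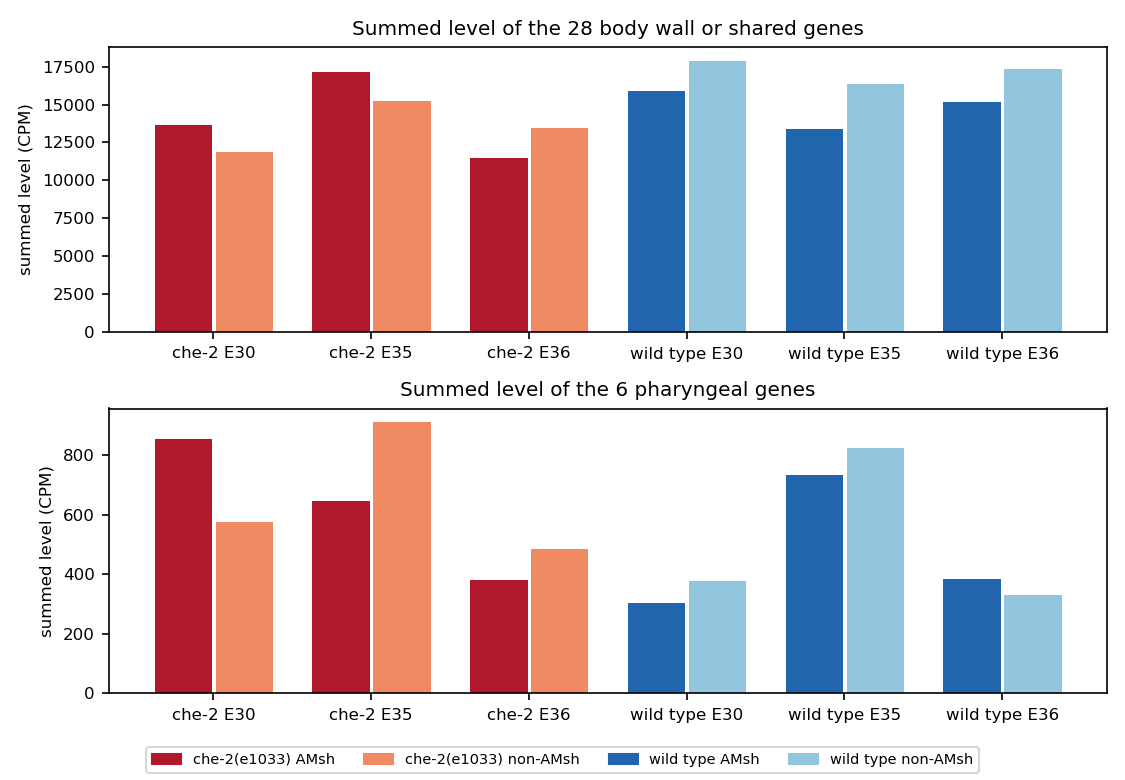
Summed level in CPM (axes start at 0) of the 28 body wall or shared genes (top) and of the 6 pharyngeal genes (bottom), with the AMsh bar left of the non-AMsh bar for each culture. Both fractions of a culture reach similar heights in the top panel. In the bottom panel the AMsh over non-AMsh ratio runs from 0.71 (che-2 E35) to 1.48 (che-2 E30). Relative to its level, the pharyngeal sum varies more over the 12 libraries (306 to 912 CPM) than the sum of all 34 genes (11875 to 18280 CPM).

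Among the thick filament genes, unc-54 had the smallest p in che-2. It was at 1661, 3043 and 2127 CPM in che-2 AMsh libraries, against 1108, 1565 and 1141 CPM in che-2 non-AMsh libraries. The che-2 groups did not overlap. In wild type it was at 1732, 1683 and 2266 CPM in AMsh libraries, against 1583, 1656 and 1514 CPM in non-AMsh libraries, also with no overlap. The log2 fold change was 0.84 (SE 0.34, 95% interval 0.10 to 1.58, adjusted p = 1.00) in che-2, 0.26 (SE 0.34, 95% interval -0.48 to 1.00, adjusted p = 1.00) in wild type and 0.55 (SE 0.24, 95% interval 0.03 to 1.07, adjusted p = 1.00) over both, so the difference did not pass. The 3′ end of unc-54 is a common part of C. elegans reporter constructs; whether the dsRed reporter carries it is not given in the sources used here, and its part in this value was not tested.

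The other thick filament members lay closer to 0. myo-3, the heavy chain of the central zone of the body wall thick filament (V:12226816-12234343 on WBcel235), was the steadiest member: 82.6, 85.5 and 74.2 CPM in che-2 AMsh libraries, 71.9, 62.2 and 81.4 CPM in che-2 non-AMsh libraries, 100.3, 63.6 and 90.6 CPM in wild type AMsh libraries and 85.7, 72.2 and 85.4 CPM in wild type non-AMsh libraries. Its highest library was 1.61 times its lowest, and all 4 groups overlapped. The regulatory light chain genes mlc-1 (X:17459160-17460767) and mlc-2 (X:17455779-17456586) are neighbours on opposite strands and near-identical in coding sequence, so reads could be split between them in counting and each value is uncertain. mlc-1 was at 1679, 1543 and 852 CPM in che-2 AMsh libraries, 1254, 1545 and 1102 CPM in che-2 non-AMsh libraries, 1109, 1154 and 1029.6 CPM in wild type AMsh libraries and 1584, 1518 and 1085 CPM in wild type non-AMsh libraries. mlc-2 was at 393, 351 and 466 CPM in che-2 AMsh libraries, 520.1, 511 and 605 CPM in che-2 non-AMsh libraries, 501, 466 and 621 CPM in wild type AMsh libraries and 612, 562 and 1041 CPM in wild type non-AMsh libraries. mlc-2 was lower in AMsh cells in 6 of 6 cultures, with a log2 fold change of -0.46 (SE 0.23, 95% interval -0.96 to 0.05, adjusted p = 1.00) over both genotypes. The essential light chain gene mlc-3 was at 2023, 2597 and 1514 CPM in che-2 AMsh libraries, 1807, 2485 and 2167 CPM in che-2 non-AMsh libraries, 2564, 2294 and 2179 CPM in wild type AMsh libraries and 2818, 2802 and 2723 CPM in wild type non-AMsh libraries. All 3 wild type AMsh libraries lay below all 3 wild type non-AMsh libraries for mlc-3, and its log2 fold change there was -0.25 (SE 0.32, 95% interval -0.95 to 0.46, adjusted p = 1.00). For paramyosin, twitchin, unc-89 and ttn-1 the log2 fold changes over both genotypes were -0.07 ± 0.25, 0.16 ± 0.25, 0.22 ± 0.22 and 0.13 ± 0.32 (± SE). ttn-1 shares 12571 bases with exp-2 on the opposite strand and unc-89 shares 1465 with clec-89; the strand setting of the counting was not given, so reads of those stretches could belong to either gene.

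Among the thin filament genes, tmd-2, a tropomodulin that caps the pointed end of actin filaments (V:8336658-8340675), had the smallest p in wild type and over both genotypes. It was at 22.9, 33 and 16.2 CPM in che-2 AMsh libraries, 15.7, 20.1 and 12.9 CPM in che-2 non-AMsh libraries, 22.6, 15.1 and 11.1 CPM in wild type AMsh libraries and 6.96, 10.5 and 10.5 CPM in wild type non-AMsh libraries. In every culture the AMsh value was the higher of the pair, with log2 ratios of 0.54, 0.71 and 0.32 in che-2 and 1.69, 0.52 and 0.07 in wild type. The che-2 fractions overlapped and the wild type fractions did not. The log2 fold change was 0.56 (SE 0.41, 95% interval -0.32 to 1.45, adjusted p = 1.00) in che-2, 0.80 (SE 0.41, 95% interval -0.09 to 1.69, adjusted p = 1.00) in wild type and 0.68 (SE 0.29, 95% interval 0.05 to 1.31, adjusted p = 0.97) over both genotypes. The che-2 value was 0.27 without the AMsh library of E35 and 0.37 without the non-AMsh library of E36. The wild type value was 0.49 without the AMsh library of E30 and 0.31 without all E30 libraries. Without the AMsh libraries with the fewest genes detected, E30 of wild type and E35 of che-2, the value over both genotypes was 0.38.

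pat-10 was at 2890.4, 3998 and 2501 CPM in che-2 AMsh libraries, 2715, 3819.5 and 3935 CPM in che-2 non-AMsh libraries, 4166, 3486 and 3695 CPM in wild type AMsh libraries and 4985, 4233 and 5124 CPM in wild type non-AMsh libraries. The wild type fractions did not overlap, the che-2 fractions did, and the log2 fold changes were -0.16 (SE 0.34, 95% interval -0.89 to 0.58, adjusted p = 1.00) in che-2 and -0.34 (SE 0.34, 95% interval -1.07 to 0.40, adjusted p = 1.00) in wild type. cpn-3 was at 1037, 1269.8 and 709 CPM in che-2 AMsh libraries, 834, 1102 and 1049 CPM in che-2 non-AMsh libraries, 1495, 1279 and 1503 CPM in wild type AMsh libraries and 1699.9, 1629.9 and 1786 CPM in wild type non-AMsh libraries. Its wild type fractions did not overlap, and the log2 fold changes were 0.02 (SE 0.32, 95% interval -0.68 to 0.71, adjusted p = 1.00) in che-2 and -0.26 (SE 0.32, 95% interval -0.95 to 0.43, adjusted p = 1.00) in wild type. The troponin I gene unc-27 was at 321, 212 and 412 CPM in che-2 AMsh libraries, 394, 275 and 360.3 CPM in che-2 non-AMsh libraries, 396, 179 and 264 CPM in wild type AMsh libraries and 348, 208 and 368 CPM in wild type non-AMsh libraries. Its groups overlapped in both genotypes, with a log2 fold change of -0.13 (SE 0.28, 95% interval -0.73 to 0.47, adjusted p = 1.00) over both. Of the other thin filament genes, mup-2, a troponin T of body wall muscle, was lower in AMsh cells in 6 of 6 cultures (-0.33 ± 0.22 over both genotypes, ± SE). tnt-2, tni-1, tni-3, lev-11, unc-87 and unc-60 lay between -0.24 (unc-87, an actin-bundling protein) and 0.07 (tni-3, a troponin I) over both genotypes. tni-3 lies within phy-3 on the opposite strand over 1506 bases, and unc-60 yields both a muscle and a non-muscle cofilin that counts per gene do not separate.

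All 8 attachment, membrane and chaperone genes had negative log2 fold changes in wild type, with a median of -0.55. In che-2, 3 of 8 were positive, with a median of -0.05, and none passed the test in either genotype. By comparison, the 21 other genes of dense body and M-line attachment had medians of -0.01 in wild type (10 of 21 positive) and 0.04 in che-2 (12 of 21 positive). Of all 34 members, 24 were negative in wild type, where the median over all genes tested was -0.10. With RLE size factors 1 of 8 was positive in wild type, and with upper-quartile scaling or library totals only 2 of 8 were positive in che-2. With 1 library left out, the wild type median ran from -0.82 (without the AMsh library of E36) to -0.43 (without that of E30), with 0 or 1 of 8 positive. The che-2 median then ran from -0.15 (without the AMsh library of E36) to 0.078 (without the non-AMsh library of E30), with 1 to 6 of 8 positive, so its direction rests on single libraries. dim-1 was at 129, 126 and 139 CPM in che-2 AMsh libraries, 132, 117 and 132 CPM in che-2 non-AMsh libraries, 85.4, 79.2 and 106 CPM in wild type AMsh libraries and 133, 109 and 139.5 CPM in wild type non-AMsh libraries. The wild type fractions did not overlap and the che-2 fractions did, with log2 fold changes of -0.50 (SE 0.27, 95% interval -1.08 to 0.08, adjusted p = 1.00) in wild type and 0.05 (SE 0.27, 95% interval -0.53 to 0.63, adjusted p = 1.00) in che-2. mlp-1 was at 21.3, 41.1 and 47 CPM in che-2 AMsh libraries, 29.2, 56 and 51.7 CPM in che-2 non-AMsh libraries, 17.7, 17.5 and 31.2 CPM in wild type AMsh libraries and 28.3, 22.2 and 57.9 CPM in wild type non-AMsh libraries. It was lower in AMsh cells in 6 of 6 cultures, with a log2 fold change of -0.52 (SE 0.33, 95% interval -1.22 to 0.19, adjusted p = 1.00) over both genotypes. Vinculin (deb-1), kindlin (unc-112), PINCH (unc-97) and the LIM protein unc-95, which link the dense body to integrin, had log2 fold changes of -0.33 ± 0.25, 0.07 ± 0.29, -0.19 ± 0.23 and -0.04 ± 0.23 over both genotypes (± SE). In the wild type culture E30, deb-1, unc-112 and unc-97 had culture log2 ratios of -1.28, -1.53 and -1.06; that AMsh library is the 1 with the fewest genes detected, and its part in these values was not tested. cav-1 was lower in AMsh cells in 6 of 6 cultures, at counts too few for its level to be read closely (-2.06 (SE 0.96, 95% interval -4.16 to 0.03, adjusted p = 1.00) over both genotypes).

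In all, 2 members (unc-54 and tmd-2) were higher in AMsh cells in 6 of 6 cultures and 4 (mlc-2, mup-2, mlp-1 and cav-1) were lower in 6 of 6, together 6 of 34. With upper-quartile scaling or library totals only, unc-54 was no longer higher in 6 of 6, and 5 or 6 members were lower in 6 of 6. Of all genes tested, 6.69% had the same direction in all 6 cultures, a smaller share. Members whose fractions did not overlap were 1 higher (unc-54) and 1 lower (mlc-2) in che-2, where 8.08% of all genes tested did not overlap in either direction. In wild type 2 members were higher (unc-54 and tmd-2) and 6 lower, where 8.65% of all genes did not overlap. The 2 of 34 in che-2 are near the share of all genes, and the 8 of 34 in wild type are a larger share. Within a 2-fold ratio lay 33, 33 and 33 of the 34 members in che-2 cultures and 29, 33 and 32 in wild type cultures. Of the 7718 genes tested with a mean of at least 10 CPM, the shares within 2-fold were 94.6%, 77.7% and 89.4% in che-2 cultures and 66.2%, 90.7% and 90.5% in wild type cultures.

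**Figure D3:**
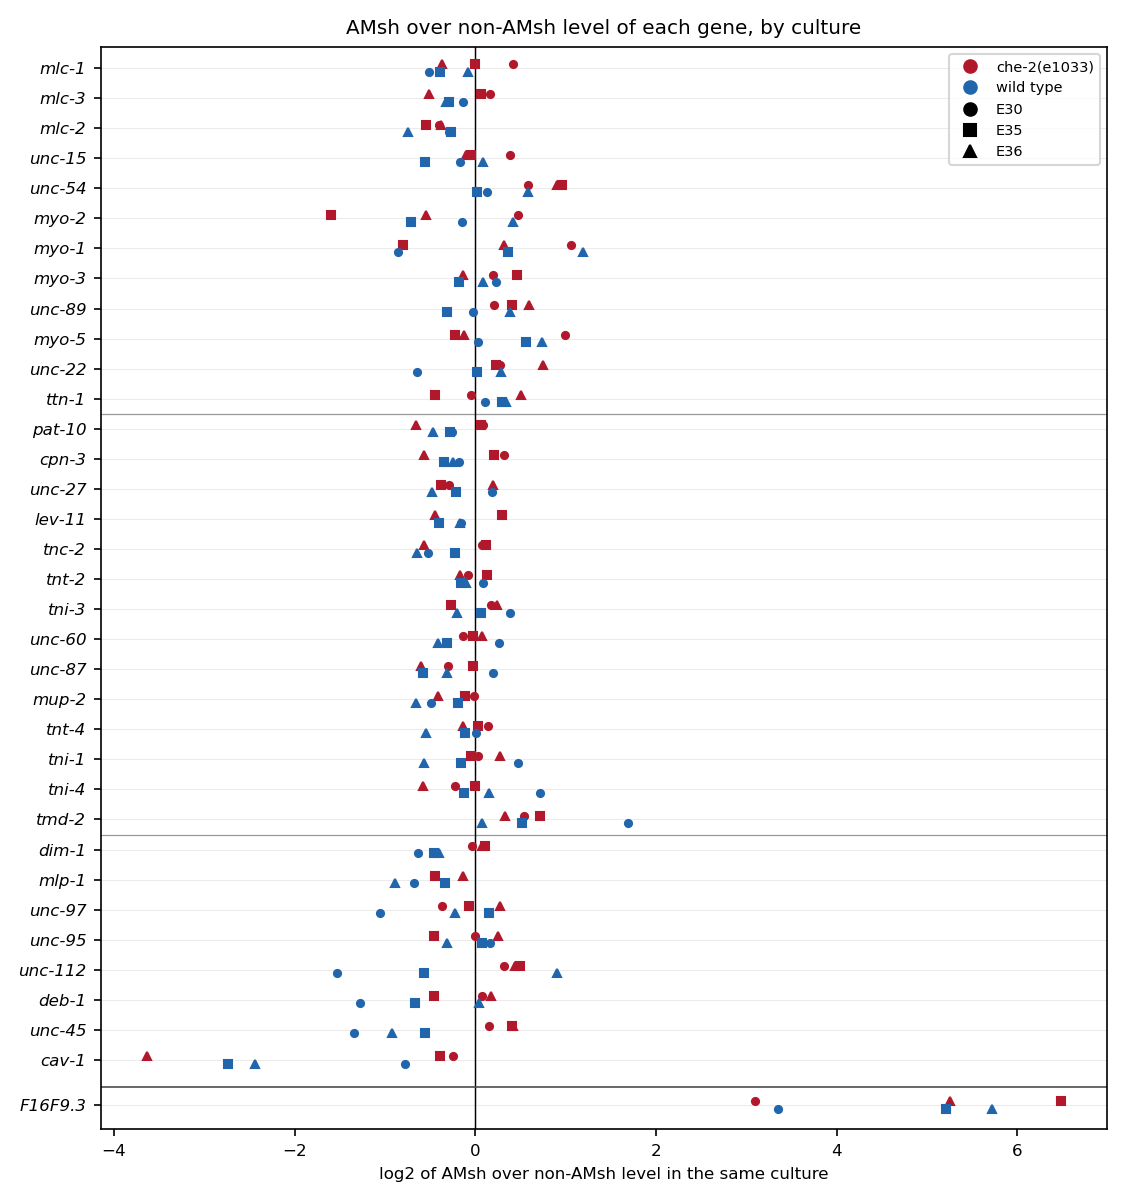
The log2 of the AMsh over the non-AMsh level of each gene in the same culture, for 3 che-2 and 3 wild type cultures, with F16F9.3 as the bottom row. Nearly all sarcomere points lie within 1 unit of 0, apart from cav-1 and some cultures of myo-1, myo-2, tmd-2, unc-97, deb-1, unc-112 and unc-45, whereas F16F9.3 lies above 3 in every culture.

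Ratios of genes within a library do not depend on library scaling, and 6 such ratios were compared between the fractions of each culture (exact sign-flip test over 6 cultures, 2-sided; the smallest p it allows is 0.0312, and 6 ratios were adjusted together, so a single ratio at that smallest p cannot pass). None passed. The pharyngeal heavy chain myo-2 over unc-54 was lower in AMsh cells in 6 of 6 cultures, with a mean log2 difference of -0.88 (SD 0.96, exact p = 0.0312, adjusted 0.188). The difference ran from -2.56 in the che-2 culture E35 to -0.11 in the che-2 culture E30, and without E35 of che-2 the mean was -0.55. For myo-2 itself the log2 fold change over both genotypes was -0.40 (SE 0.37, 95% interval -1.21 to 0.40, adjusted p = 1.00). It was at 244, 100.3 and 107 CPM in che-2 AMsh libraries, 176, 304 and 155 CPM in che-2 non-AMsh libraries, 90.3, 167 and 114 CPM in wild type AMsh libraries and 99.7, 274 and 85.3 CPM in wild type non-AMsh libraries. myo-3 over unc-54, the minor over the main heavy chain of body wall muscle, was lower in AMsh cells in 5 of 6 cultures (mean log2 difference -0.42, SD 0.37, exact p = 0.0625, adjusted 0.188). Per kilobase, unc-54 was 13.7 to 34.7 times as high as myo-3. Both ratios share unc-54 as denominator, which with TMM scaling was itself higher in AMsh cells in 6 of 6 cultures. myo-2 alone was higher in 2 of 6 and myo-3 alone in 4 of 6.

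myo-1 over myo-2, the pair of pharyngeal heavy chains, was higher in AMsh cells in 5 of 6 cultures (mean log2 difference 0.56, SD 0.65, exact p = 0.0938, adjusted 0.188). myo-1 was the member with the widest range relative to its level among those above 10 CPM: 339.7, 107 and 71.7 CPM in che-2 AMsh libraries, 163, 186 and 57.4 CPM in che-2 non-AMsh libraries, 38.7, 230.2 and 138 CPM in wild type AMsh libraries and 70.3, 179 and 60.4 CPM in wild type non-AMsh libraries. Its highest library was 8.77 times its lowest, and all 4 groups overlapped. mlc-1 over mlc-2 was higher in AMsh cells in 4 of 6 cultures (mean log2 difference 0.28, SD 0.45, exact p = 0.219, adjusted 0.328), and without E30 of che-2 the mean was 0.17.

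Of the 6 ratios, tnc-2 over pat-10, pharyngeal over body wall troponin C, had the mean nearest 0 and the smallest SD, with a mean log2 difference between fractions of -0.04 (SD 0.14, range -0.27 to 0.08, exact p = 0.531, adjusted 0.531), and its sign turned when the wild type culture E30 was left out (0.00041). The same ratio differed far more between cultures: per kilobase, pat-10 was 15.1 to 51.5 times as high as tnc-2 over the 12 libraries. tnc-2 (II:10466852-10468344) was at 142, 277 and 109.7 CPM in che-2 AMsh libraries, 135, 255 and 163 CPM in che-2 non-AMsh libraries, 84.8, 234.98 and 87.8 CPM in wild type AMsh libraries and 122.04, 275 and 137 CPM in wild type non-AMsh libraries. tni-4 over unc-27, pharyngeal over body wall troponin I, had a mean log2 difference of 0.15 (SD 0.51, range -0.77 to 0.63, exact p = 0.5, adjusted 0.531). That mean was 0.34 without E36 of che-2, 0.08 without E30 of wild type and 0.06 without E36 of wild type. tni-4 was at 13.6, 21.8 and 12 CPM in che-2 AMsh libraries, 15.9, 21.7 and 17.9 CPM in che-2 non-AMsh libraries, 16.4, 15.2 and 9.53 CPM in wild type AMsh libraries and 9.96, 16.5 and 8.59 CPM in wild type non-AMsh libraries, and its groups overlapped.

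**Figure D4:**
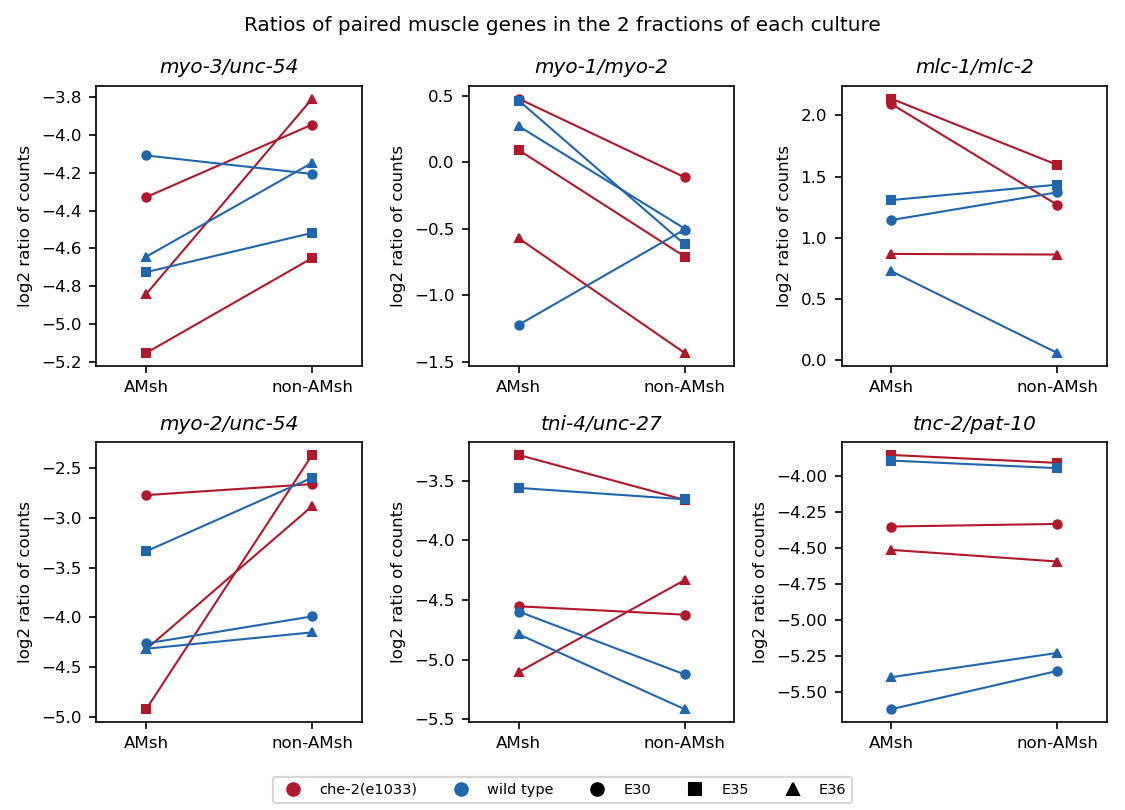
The log2 ratio of counts of 6 pairs of muscle genes in the AMsh (left) and non-AMsh (right) fraction of each culture, with a line joining both fractions of a culture. The lines of tnc-2/pat-10 are almost flat. The E35 lines of both genotypes lie close together above the others, and the wild type lines of E30 and E36 overlap in range. All 6 lines of myo-2/unc-54 are lower on the AMsh side.

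Cultures of a group differed by more than the fractions of a culture for most members. Averaged over pairs of libraries, the absolute log2 difference between cultures of a group had a median over the members of 0.46, against 0.31 between the fractions of a culture; over all genes tested the medians were 1.03 and 0.78. Cultures differed more than fractions for 25 of 34 members, and for 69.6% of all genes tested, so the members are near the background. The following values by code were looked at after the data were seen. tnc-2 was higher in all 4 E35 libraries (234.98 to 277 CPM) than in the other 8 (84.8 to 163 CPM), and unc-60 was lower in E35 (117 to 153 CPM) than in the other 8 (155 to 229 CPM). mlc-1 was lower in the 4 E36 libraries (852 to 1102 CPM) than in the other 8 (1109 to 1679 CPM), and no member stood apart in E30. Of all genes tested, 2.04% stood apart in E30, 1.7% in E35 and 0.491% in E36. Compared within each group, E35 was the highest of the 3 codes in all 4 groups for 2 members (tnc-2 and tnt-4) and the lowest for 6 (unc-27, mlc-2, tni-1, tnt-2, dim-1 and unc-60), where the shares of all genes were 3.14% and 4.55%. E30 was highest for 2 members (tni-1 and tnt-2) and lowest for 0, where the shares were 3.93% and 5.91%. E36 was highest for 3 (mlc-2, mup-2 and unc-95) and lowest for 2 (mlc-1 and tnt-4), where the shares were 2.76% and 1.26%. The labels give the codes as replicates and do not say what the codes share between genotypes.

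The question for the genotypes was whether sarcomere transcripts differed in che-2 animals. No member passed the test in either fraction, while 0.461% of all genes tested were called in AMsh cells and 0.144% in non-AMsh cells. By unadjusted p under 0.05 the counts were 2 of 34 in AMsh cells and 1 in non-AMsh cells, smaller shares than the 12.8% and 10.3% of all genes tested. DESeq2 called 1 member (unc-45) in AMsh cells and 0 in non-AMsh cells, where it called 5.29% and 4.66% of all genes. The median log2 fold change of the members, che-2 over wild type, was 0.29 in AMsh cells and 0.16 in non-AMsh cells (0.12 and -0.01 over all genes tested). Members with no overlap between genotypes were 5 higher and 2 lower in che-2 AMsh cells, where 17% of all genes tested did not overlap, and 2 higher and 5 lower in che-2 non-AMsh cells, where 22.2% did not. The 95% interval lay within a 2-fold change for 7 members in AMsh and 8 in non-AMsh cells, so for most members a 2-fold difference lies inside it. The same held for 6.86% and 6.75% of all genes tested, smaller shares than among the members.

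unc-45, the chaperone that folds myosin heads (III:491547-502591), had the smallest p in AMsh cells. It was at 12.9, 6.58 and 12.1 CPM in che-2 AMsh libraries, against 2.27, 4.7 and 3.91 CPM in wild type AMsh libraries, and these groups did not overlap. In non-AMsh cells it was at 11.6, 4.95 and 9.05 CPM in che-2 libraries, against 5.86, 6.92 and 7.45 CPM in wild type libraries, which overlapped. The log2 fold change was 1.54 (SE 0.51, 95% interval 0.43 to 2.65, adjusted p = 0.238) in AMsh cells and 0.34 (SE 0.50, 95% interval -0.75 to 1.42, adjusted p = 0.903) in non-AMsh cells, and the difference between these, 1.20, did not pass (adjusted p = 1.00). With DESeq2 the AMsh value was 1.45 (SE 0.46, adjusted p = 0.035). unc-45 RNA is also supplied maternally. The germ line markers (10 of 10 measured, none at 0) summed to 658 to 808 CPM in che-2 AMsh libraries, against 332 to 799 CPM in wild type AMsh libraries. In non-AMsh cells they summed to 679 to 919 CPM in che-2 libraries and 377 to 808 CPM in wild type libraries. All 10 had positive log2 fold changes in both fractions with none called (medians 0.71 and 0.88), and their part in the unc-45 value was not tested.

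tnt-4, a troponin T listed with the pharyngeal forms (V:1989479-1992889), was next. It was at 75.9, 107 and 59.9 CPM in che-2 AMsh libraries, against 36.3, 55.8 and 20.7 CPM in wild type AMsh libraries, and at 69.1, 104.7 and 66 CPM in che-2 non-AMsh libraries, against 36.2, 60.3 and 30.3 CPM in wild type non-AMsh libraries. The che-2 and wild type libraries overlapped in neither fraction, and E35 was the highest of the 3 cultures in every group. The log2 fold change was 1.11 (SE 0.43, 95% interval 0.18 to 2.04, adjusted p = 0.302) in AMsh cells and 0.92 (SE 0.43, 95% interval -0.01 to 1.85, adjusted p = 0.493) in non-AMsh cells. All 6 pharyngeal genes had positive log2 fold changes in both fractions under each of the 4 scalings (TMM, RLE, upper-quartile and library totals), with medians of 0.32 and 0.43, and none passed: myo-2 had 0.28 and 0.47, myo-1 0.35 and 0.39, myo-5 0.18 and 0.32, tnc-2 0.37 and 0.05, and tni-4 0.21 and 0.67 in AMsh and non-AMsh cells. Both fractions came from the same 6 cultures and the 4 scalings use the same counts, so these agreements are not independent observations. With 1 library left out, 4 to 6 of the 6 were positive in each fraction. The median then ran from 0.16 (without the che-2 AMsh library of E30) to 0.76 (without the wild type AMsh library of E35) in AMsh cells. In non-AMsh cells it ran from 0.034 (without the che-2 library of E35) to 1.03 (without the wild type library of E35). Of the 6 pharyngeal muscle markers that are not members, 5 were tested, with medians of -0.33 in AMsh (2 of 5 positive) and -0.28 in non-AMsh cells (0 of 5 positive) and none called. The pharyngeal gland markers summed to 492 to 717 CPM in che-2 AMsh libraries and 397 to 743 CPM in wild type AMsh libraries, and to 524 to 603 CPM in che-2 non-AMsh libraries and 333 to 572 CPM in wild type non-AMsh libraries; the part of other pharyngeal cells in these values was not tested.

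cpn-3 was lower in che-2 than in wild type in non-AMsh cells, at 834, 1102 and 1049 CPM in che-2 libraries, against 1699.9, 1629.9 and 1786 CPM in wild type libraries, with no overlap. The log2 fold change was -0.78 (SE 0.32, 95% interval -1.47 to -0.08, adjusted p = 0.406) there and -0.50 (SE 0.32, 95% interval -1.20 to 0.19, adjusted p = 0.546) in AMsh cells. Of the other members with the most reads, some were negative in both fractions: pat-10 had -0.27 in AMsh and -0.45 in non-AMsh cells, mlc-3 -0.20 and -0.37, and mlc-2 -0.39 and -0.44. unc-54 had 0.27 in AMsh and -0.32 in non-AMsh cells, mlc-1 0.31 and -0.10, unc-15 -0.04 and -0.32, and unc-27 0.17 and 0.16. With library totals only, unc-15 in AMsh and mlc-1 in non-AMsh cells turned positive. The giant genes had positive values: unc-22 0.68 and 0.21, unc-89 0.53 and 0.19, and ttn-1 0.41 and 0.63. None of these passed. The 8 attachment and chaperone genes were all positive in AMsh cells (7 of 8 with RLE size factors), with a median of 0.48, and 6 of 8 were positive in non-AMsh cells (5 of 8 with upper-quartile scaling), with a median of 0.24. With 1 library left out, 7 or 8 were positive in AMsh cells, with a median of 0.40 without the wild type AMsh library of E30 and 0.78 without that of E36. In non-AMsh cells 4 to 6 were then positive, with a median of 0.024 without the che-2 library of E30 and 0.090 without the wild type library of E35. The 21 other genes of dense body and M-line attachment had medians of -0.04 in AMsh (10 of 21 positive) and -0.06 in non-AMsh cells (9 of 21 positive).

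**Figure D5:**
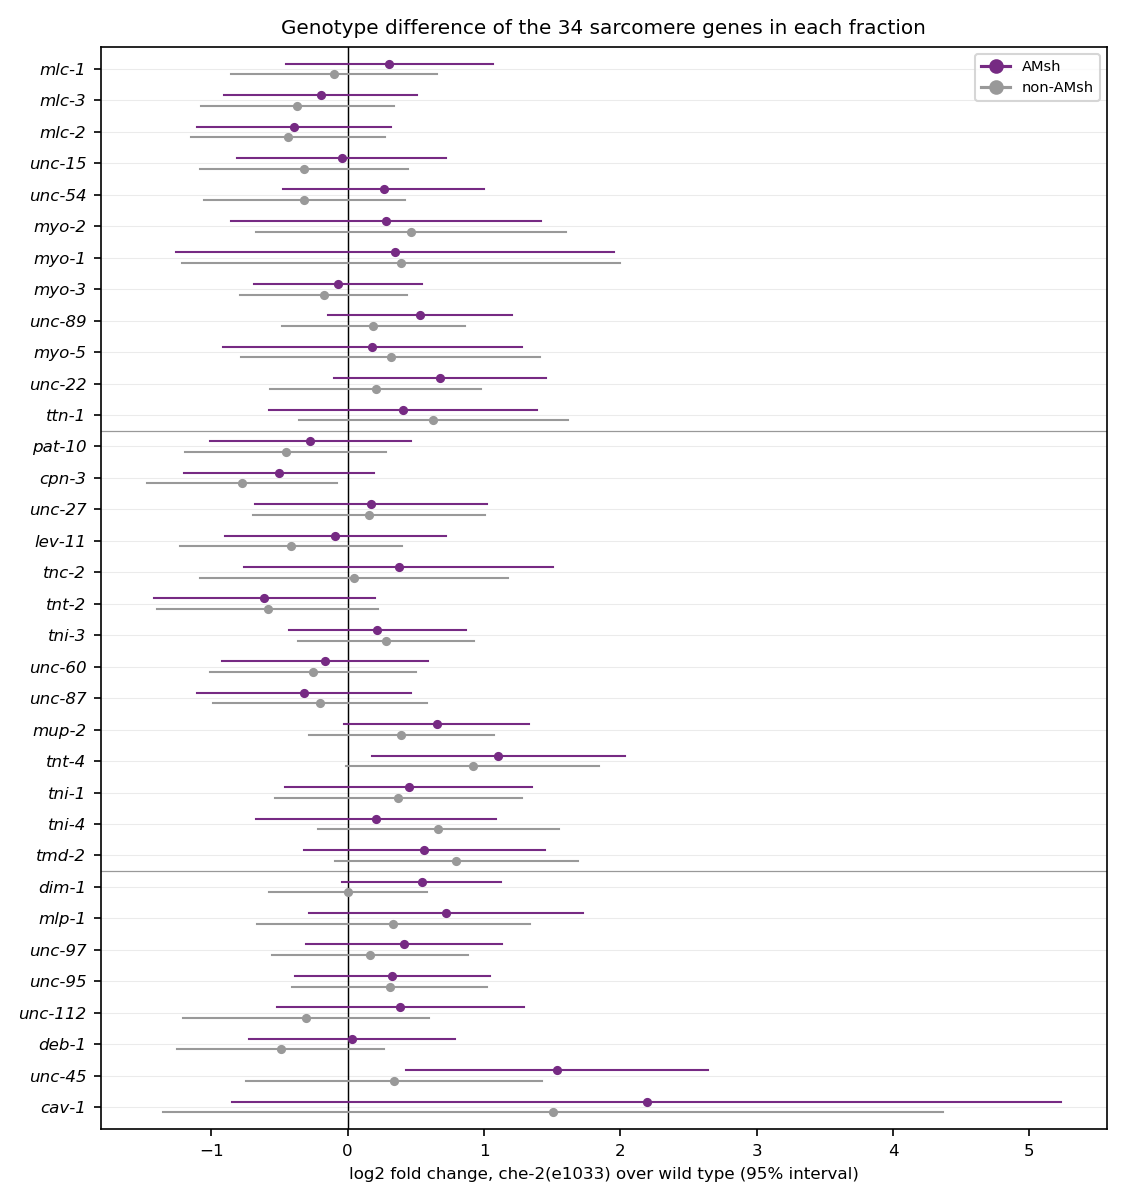
Log2 fold change, che-2(e1033) over wild type, with 95% intervals for the 34 genes in AMsh cells (purple) and non-AMsh cells (grey). Most intervals include 0; unc-45 and tnt-4 lie above 0 in AMsh cells and cpn-3 lies below 0 in non-AMsh cells before adjustment for 16690 genes.

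The difference between the fractions of the genotype change was called for 0 members and for 0% of all genes tested (edgeR; 0 members had an unadjusted p under 0.05, and DESeq2 called 0 members and 4 genes in all). unc-45 and dim-1 had the smallest p, at 1.20 (SE 0.71, 95% interval -0.34 to 2.74, adjusted p = 1.00) and 0.54 (SE 0.38, 95% interval -0.28 to 1.36, adjusted p = 1.00). Within cultures, AMsh over non-AMsh log2 ratios of unc-45 were 0.15, 0.41 and 0.42 in che-2 and -1.35, -0.56 and -0.92 in wild type. The 8 attachment and chaperone genes all had positive differences (median 0.53; 7 of 8 with RLE size factors or library totals), and all genes tested had a median of 0.11. Without the wild type AMsh library of E30 the median was 0.35, with 6 of 8 positive. The 21 other attachment genes had a median difference of -0.01, with 10 of 21 positive. For the 8 genes, the wild type fraction values, the AMsh genotype values and these differences all use the same wild type AMsh libraries. They are therefore not independent observations. In those libraries the 8 genes summed to 240 CPM on average (187 to 307 CPM). The mean sum was 330 CPM in che-2 AMsh, 325 CPM in che-2 non-AMsh and 330 CPM in wild type non-AMsh libraries.

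Further genes of muscle were compared in the same fit. In 6 other lists (dense body and M-line, actin and thin filament, excitation and calcium, transmitter receptors, dystrophin complex, transcription factors) no gene was called in che-2 (0 of 82 tested) or in wild type (0 of 82), and list medians lay between -0.18 and 0.28 in che-2 and between -0.69 and -0.01 in wild type. The 9 body wall muscle markers that are not members summed to 6883 to 11121 CPM in che-2 AMsh libraries and 7154 to 10083 CPM in che-2 non-AMsh libraries. In wild type they summed to 9516 to 10444 CPM in AMsh libraries and 9704 to 12799 CPM in non-AMsh libraries. The actin gene act-4 alone held 93.6 to 96.8% of these sums. Without it, a split made after the values were seen, the other 8 summed to 409 to 478 CPM in che-2 AMsh libraries and 356 to 468 CPM in che-2 non-AMsh libraries, and to 359.7 to 392 CPM in wild type AMsh libraries and 397 to 424 CPM in wild type non-AMsh libraries. The 6 pharyngeal muscle markers summed to 18.96 to 86.7 CPM in che-2 AMsh libraries, 32.7 to 48.1 CPM in che-2 non-AMsh libraries, 20.1 to 59.0 CPM in wild type AMsh libraries and 24.6 to 75.0 CPM in wild type non-AMsh libraries. Markers of other cells were in both fractions too: the 9 intestinal markers measured summed to 2323 to 4729 CPM in che-2 AMsh libraries and 2687 to 5038 CPM in che-2 non-AMsh libraries, and to 6477 to 7340 CPM in wild type AMsh libraries and 6973 to 8480 CPM in wild type non-AMsh libraries. Over the 9 marker lists other than AMsh glia (both muscles, pharyngeal gland, hypodermis, intestine, neurons, germ line, sperm and coelomocytes), no gene was called by fraction, and list medians lay between -0.62 and 0.32 in che-2 and between -0.42 and 0.16 in wild type. The 10 myosins outside muscle had none called and medians of 0.18 and 0.24. Of 7 AMsh markers 5 were called higher in AMsh cells in each genotype, with median log2 fold changes of 3.98 in che-2 and 3.95 in wild type. By genotype no gene of the 6 muscle lists was called in either fraction, and of the marker lists 1 gene, the pharyngeal gland gene phat-4, was called higher in che-2 AMsh cells (log2 fold change 2.22, SE 0.40, edgeR adjusted p = 0.037). It was at 97.1, 101 and 96.5 CPM in che-2 AMsh libraries, against 32.9, 20.1 and 10.2 CPM in wild type AMsh libraries, with no overlap. In non-AMsh cells phat-4 was at 112.01, 118 and 99.7 CPM in che-2 libraries, against 20.6, 29.1 and 18.9 CPM in wild type libraries, also with no overlap (log2 fold change 2.27, SE 0.40, edgeR adjusted p = 0.058). Intestinal sums did not overlap between the genotypes in either fraction, and sperm markers had median log2 fold changes of 2.50 in AMsh and 2.87 in non-AMsh cells with none called. Coelomocyte sums did not overlap either (3 markers, none positive, medians -1.504 and -1.70), but in non-AMsh cells they nearly touched. There the highest che-2 sum was 109.3 CPM and the lowest wild type sum 109.7 CPM. Neuronal markers had medians of -0.41 and -0.62 with 1 of 11 positive in each fraction, and hypodermal markers had medians of -0.31 and -0.32. The part of these cell types in the members' genotype values was not tested.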

How the data were processed

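Polyadenylated RNA of sorted cells was amplified (SMARTer) and sequenced with Illumina chemistry, per the labels' protocols. The submitters' processing notes name CASAVA 1.8.2, FastQC, STAR 2.3, featureCounts and the build WBcel235; read filters, annotation release and strand setting are not given in the sources used here. A deposited table holds raw read counts per gene, not normalised by the authors, and the deposited exon length in bases, used only for levels per kilobase. Titles and column names number some replicates differently, so libraries were matched by the codes E30, E35 and E36.

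Counts were scaled with TMM and filtered with filterByExpr, and a single 4-group quasi-likelihood model was fitted over the 12 libraries with edgeR 4.0.16, under R 4.3.3, leaving 8 residual degrees of freedom; the biological coefficient of variation was 0.732. p values were 2-sided and adjusted by Benjamini-Hochberg over all 16690 genes within each of 6 comparisons at 0.05. DESeq2 1.42.0 was an alternative, with other scalings, filters, fits of only the groups compared, blocks and left-out libraries. Ratios used counts plus 0.5; culture ratios used CPM plus 0.05. Figures used matplotlib 3.10.9. Scripts were tested on simulated data. Counts of amplified reads are not independent molecules, so a floor covers counting error only.

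The fractions are paired by culture, having been sorted from the same animals: after group means were removed, fractions of a culture correlated at 0.467, 0.379 and 0.141 over genes in che-2, and at 0.260, 0.182 and 0.260 in wild type. Members and lists were chosen with earlier results of these data known. Full values are given for members passing in any comparison, the 2 with the smallest p per comparison, the 2 highest per kilobase in each role list and the genes of the 6 ratios. The replicates are separate cultures per the labels.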

Additional observations from a re-analysis of the deposited data

Results flagged for a closer look

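All 34 members were screened for a ratio in opposite directions in the genotypes, and only unc-45 was flagged. Its AMsh over non-AMsh log2 ratio was positive in every che-2 culture (0.15, 0.41 and 0.42) and negative in every wild type culture (-1.35, -0.56 and -0.92). The share of all genes with this pattern is not given here. The mean ratio was 1.27 higher in che-2 than in wild type. The ratios that prompted this are no test of it. In the model over all genes, the difference was 1.20 (SE 0.71), and it did not pass after adjustment (edgeR, adjusted p = 1.00).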

How the results depend on the processing

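No member was called under any alternative in any comparison, except unc-45 in che-2 against wild type AMsh cells with DESeq2 (members called 1, log2 fold change 1.45, SE 0.46, adjusted p = 0.035; its adjusted p over the alternatives was 0.035 to 0.757). Of 4813 values of members under alternatives, 415 changed sign, 3 of 1364 where the reported value was at least 1 SE from 0 and 412 of 3449 elsewhere. With the replicate block (culture for fractions, code for genotypes) members called stayed at 0, and all genes called were 82 in che-2 fractions, 75 in wild type fractions, 218 in AMsh genotypes and 167 in non-AMsh genotypes, against 99, 73, 77 and 24; libraries of a code did not all correlate above 0.1 between genotypes (0.011, -0.010 and 0.049 in AMsh; 0.179, 0.067 and 0.183 in non-AMsh), so the code was taken only as a shared number there. In non-AMsh each of these was above every pair of different codes (-0.168 to 0.040), a hint from the data that libraries of a code share more, and library numbers in the column names also run together within a code.

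The median member log2 fold change moved with scaling. In che-2 fractions it was -0.11 with library totals only and ran from -0.099 to 0.041 with a library left out. In wild type fractions it was -0.30 with upper-quartile scaling and -0.26 without the 2 libraries with the fewest genes, and ran from -0.26 to -0.15 with a library left out and from -0.25 to -0.081 with a code left out. In the AMsh genotypes it was 0.17 with only the groups compared and ran from 0.14 to 0.30 with a library left out and from 0.14 to 0.28 with a code left out. In the non-AMsh genotypes it was 0.39 with library totals only and ran from 0.021 to 0.19 with a library left out. With a code left out it was 0.023 (E30), -0.043 (E35) and 0.13 (E36). Library totals shifted the median of all genes by -0.11 in che-2 fractions, 0.14 in AMsh genotypes and 0.22 in non-AMsh genotypes; relative to it, the members' median moved by little (0.17 and 0.19 above all genes in non-AMsh genotypes, with TMM and library totals). The tnc-2 over pat-10 difference ran from -0.069 to 0.00041 with a culture left out, the highest without the wild type culture E30. The cause of these shifts was not tested. Over all alternatives, genes called ranged from 0 to 183 in che-2 fractions, 0 to 176 in wild type, 0 to 883 in AMsh genotypes and 0 to 778 in non-AMsh genotypes, with DESeq2 the highest. With a culture left out, the exact sign-flip test of a ratio could not go below p = 0.0625.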
